A study of Mus musculus with 2 samples.

Results

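The genes of 7 growth factor receptors, Fgfr1, Fgfr2, Fgfr3, Igf1r, Insr, Met and Mst1r, and of the docking proteins Irs1 and Irs2 were followed in chromatin accessibility data from mouse skin. Their accessible regions were found by position: every merged region with at least 20 summed counts whose nearest protein-coding gene span (RefSeq, GRCm38, distance 0 inside, at most 50 kb) was 1 of these 9 genes. This gave 118 of 94857 regions, and a further 23 regions of these genes lay under the count minimum. The assay was ATAC-seq, in which the Tn5 transposase inserts sequencing adapters into open DNA. The cells were interfollicular epidermal basal cells of back skin, sorted as ITGA6-positive and CD34-negative, 10000 per library. The control library came from 1 untreated mouse and the stretched library from 1 mouse whose skin had been expanded by force; both were of the outbred CD1 stock, and the labels used here give no age or sex and do not explain the D2 in the stretched sample's title, so the time of sampling is not known here. With 1 library per group there is no replicate check and no test, and the 95% intervals in parentheses are exact and reflect counting error alone. They take the counts as independent. In a bulk library, a smaller share of cells with an open site and less accessibility per cell cannot be told apart.

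All 7 receptors are transmembrane tyrosine kinases. FGF receptors bind fibroblast growth factors together with heparan sulfate; in epidermis, keratinocytes use an epithelial splice form of Fgfr2 to respond to FGF7 and FGF10 made by dermal cells, and Fgfr3 is also an epithelial receptor. Igf1r and Insr are related receptors for insulin-like growth factors and insulin, and both pass their signal to Irs1 and Irs2, which recruit PI3 kinase. Met is the receptor of hepatocyte growth factor and Mst1r (RON) that of macrophage stimulating protein, and both are known for roles in epithelial migration and wound repair.

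The DNA just before the start sites is shown for 3 genes whose start-site regions differ in what was measured there. Fgfr2 had a fold below 1 there, and Met a fold of 1.27 whose interval only just excluded 1. The Irs2 region had the most counts of any of the 118 regions. The sequences are the 250 bases before the RefSeq start on the coding strand (GRCm38.p6). They lie at chr7:130266809-130267058 (minus strand), chr6:17463707-17463956 (plus strand) and chr8:11008930-11009179 (minus strand). The Fgfr2 start-site region ended at 130266939, so part of the Fgfr2 sequence lay outside the region whose fold is given. The Met and Irs2 sequences lay inside their regions. Capitals mark matches to GGGCGG (a GC box) and TGANTCA (the AP-1 motif) on either strand.
Fgfr2: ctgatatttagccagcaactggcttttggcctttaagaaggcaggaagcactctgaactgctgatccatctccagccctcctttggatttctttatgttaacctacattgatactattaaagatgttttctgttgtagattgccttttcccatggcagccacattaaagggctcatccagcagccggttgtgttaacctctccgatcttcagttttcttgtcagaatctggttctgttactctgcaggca
Met: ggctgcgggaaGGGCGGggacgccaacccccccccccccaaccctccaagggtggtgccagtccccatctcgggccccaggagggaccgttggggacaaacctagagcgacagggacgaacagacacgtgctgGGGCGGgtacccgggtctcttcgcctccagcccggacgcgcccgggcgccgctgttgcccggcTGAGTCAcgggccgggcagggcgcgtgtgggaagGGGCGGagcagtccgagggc
Irs2: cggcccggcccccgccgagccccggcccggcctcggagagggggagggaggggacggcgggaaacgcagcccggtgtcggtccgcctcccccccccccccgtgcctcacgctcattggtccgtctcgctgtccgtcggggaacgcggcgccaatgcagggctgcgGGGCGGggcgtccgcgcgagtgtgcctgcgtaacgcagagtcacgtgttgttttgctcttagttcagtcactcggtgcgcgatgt
The Fgfr2 sequence held none of the 5 motifs searched and had 44.0% G and C, against a median of 52.4% over 32851 RefSeq start sites. Met had 74.0% and Irs2 72.8%. Met held 1 AP-1 match, a motif found in 6.75% of all start-site sequences of this length, and 3 GC boxes. GC boxes occurred in 32.7% of all, and Irs2 held 1. The other motifs were GGAATG (TEAD, 12.6% of all), TGTTTAC (forkhead, 3.17%) and TGACGTCA (the cyclic AMP response element, 1.55%). Of these, only the TEAD motif was matched, once, at Irs1. Over the 7 genes with a start site in the table, those other than Fgfr2 had between 56.4% and 77.6% G and C. Fgfr1 and Insr have no entry. A match describes letters and not binding.

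Counts were scaled by trimmed mean of M values (TMM) factors over all regions, and a fold is the stretched level over the control level. Counts given per region are unscaled. By a rule of size (at least 2-fold, with an interval that excludes 1), 2 of the 118 regions were higher and 11 lower in the stretched library. Over all 94857 regions, 7.22% were higher and 8.71% lower, against 1.69% and 9.32% of the regions here, so the lower share was near that of all regions. The median log2 fold was -0.23, against -0.0029 for all regions. The 9 genes differed among themselves. The FGF receptor genes had 8 of the 11 lower regions and 1 higher among their 42 (19.0% lower, against 8.71% of all regions). By the same rule Met had 1 higher and 0 lower. By intervals alone, 7 of its 20 regions lay above 1 and 1 below, against 18.6% and 15.6% of all regions. Fgfr3, Insr, Mst1r and Irs1, with 21 regions in all, had none past the rule. Lower calls were more often in regions with few counts, here as over all regions: 10 of the 11 had under 100 counts. Of the 67 regions with under 100 counts, 14.9% were lower, against 12.1% of all such regions. Of the 51 regions with at least 100 counts, none was higher and 1 lower, where 6.16% and 2.87% of all such regions were.

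**Figure D1:**
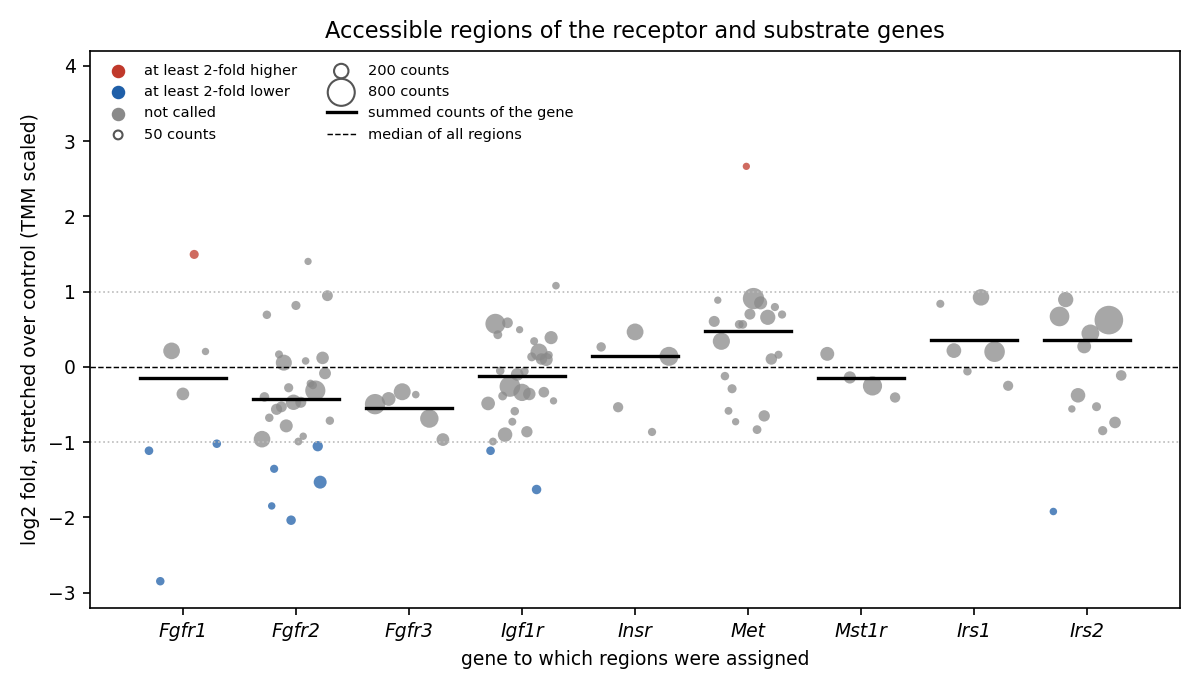
Log2 fold (stretched over control, TMM scaled) of the 118 regions by gene. Each point is 1 region, its area grows with the summed count, and colours mark regions at least 2-fold higher or lower; the black bar is the fold of the gene's summed counts, the dashed line the median of all regions and the dotted lines 2-fold. All 6 Fgfr3 regions lie below the dashed line, and 14 of the 20 Met regions lie above a fold of 1.

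Fgfr2, on chromosome 7 from 130162451 to 130266808, had 29 regions, 19 touching the gene and 10 outside it. Their summed counts were 1690 in the control and 1193 after stretching, which gave a fold of 0.746 (0.692 to 0.804). Of these regions 21 were below 1 and 8 above, with 5 past the rule as lower and 0 as higher. The fold was 0.764 (0.695 to 0.840) in the gene and 0.716 (0.632 to 0.810) outside it. The region with the most counts, at the start site (130265051 to 130266939), held 243 counts in the control and 185 after stretching (0.804, 0.661 to 0.978). The lowest fold was at a region inside the gene, 39383 bp after the start (130226875 to 130227425). It had 52 and 12 counts, giving 0.244 (0.118 to 0.463), and a listed peak in the control only. The largest drop in counts among the called regions was 19129 bp before the start (130285937 to 130286739), with 116 and 38 counts (0.346, 0.233 to 0.503). A region 40550 bp before the start went the other way, with 34 and 62 counts (1.93, 1.25 to 3.02) and a listed peak in the stretched library only. The next protein-coding gene, Ate1, was at least 81688 bp from any Fgfr2 region. Of the 452 genes with at least 20 regions, 56 (12.4%) had a summed fold as low as that of Fgfr2, and 102 had 5 or more lower regions. With the trend of the fold on the count removed, 5 Fgfr2 regions passed as lower and 2 as higher.

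Fgfr3, on chromosome 5 from 33721724 to 33737068, had 6 regions, with folds from 0.512 to 0.796. Their sum was 868 counts in the control and 564 after stretching, or 0.687 (0.616 to 0.764), the lowest of the 9 genes. All 6 were below 1 and 3 had intervals below 1, but none reached 2-fold. The region with the most counts lay 7491 bp before the start (33712463 to 33714233), with 262 and 176 counts (0.710, 0.583 to 0.863). The start-site region, which covers both annotated starts (33720896 to 33722669), had 166 and 125 counts, a fold whose interval held 1 (0.796, 0.626 to 1.01). A region 609 bp past the far end of the gene, and 1117 bp from the neighbouring gene Letm1, had 99 and 48 counts (0.512, 0.355 to 0.730).

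Fgfr1, on chromosome 8 from 25518759 to 25575718, gave a mixed picture over its 7 regions. Summed counts of 344 in the control and 294 after stretching gave 0.903 (0.770 to 1.06), which did not differ from 1 beyond counting error. The 3 regions outside the gene were lower and the 4 touching it were not. Outside, 100 control stood against 33 stretched counts, a fold of 0.349 (0.228 to 0.521). A pair of these regions, 50 bp apart and 34381 and 33798 bp from the gene, had 32 and 14 counts (25483480 to 25484378) and 38 and 5 counts (25484429 to 25484961). The second had the lowest fold of the 118 regions, 0.139 (0.043 to 0.354), and a listed peak in the control only. Inside the gene, the region from 25543185 to 25544342 was higher, with 15 and 40 counts (2.82, 1.52 to 5.49) and a listed peak in the stretched library only. The region with the most counts, at a gene end (25518492 to 25519996), had 134 and 147 counts (1.16, 0.911 to 1.48). The other lower region outside the gene (25575996 to 25576601) lay 278 bp past it and 1877 bp from the gene Letm2, with 30 and 14 counts (0.493, 0.242 to 0.959). With a 99% interval, or with the count trend removed, 1 of the 3 lower regions was left. The summed fold was 1.13 with a minimum of 50 counts, and 0.819 (0.699 to 0.960) when the scale came from counts other than those of the 10 regions with over 10000.

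**Figure D2:**
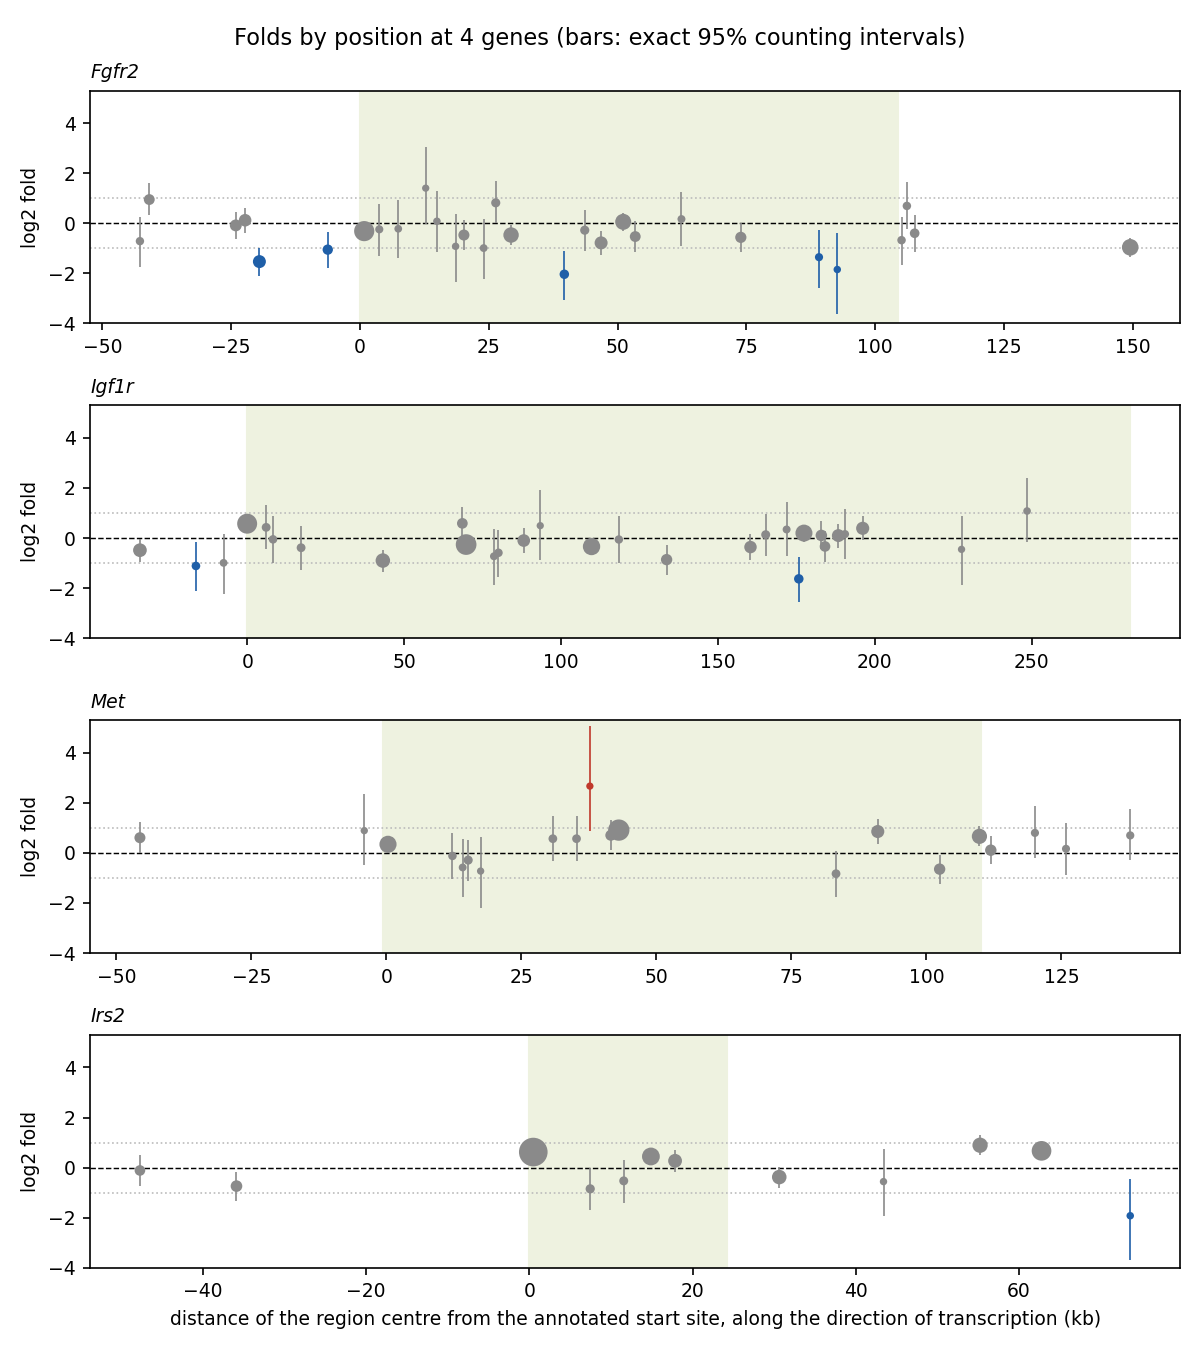
Log2 fold by distance from the annotated start site (kb, positive along the direction of transcription) at Fgfr2, Igf1r, Met and Irs2. Points are regions, sized by count, bars are exact 95% intervals, the shaded span is the gene, and blue and red mark regions at least 2-fold lower or higher. The lower Fgfr2 regions lie on both sides of the start, and the Met regions between 30 and 45 kb after the start all lie above a fold of 1.

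Igf1r, on chromosome 7 from 67952257 to 68233668, is the longest of these genes and had 29 regions, 26 of them touching it. The control sum was 1839 counts and the stretched sum 1608, or 0.924 (0.864 to 0.988). Its regions went in both directions, 12 above 1 and 17 below, with 2 past the rule, both lower. The start-site region (67950853 to 67953586) had 174 and 245 counts, a fold of 1.49 (1.22 to 1.82). Its interval held 1 with the count trend removed (1.17, 0.957 to 1.43) and with all counts as the scale (1.05, 0.863 to 1.29). The 3 regions before the start went the other way, with 158 and 95 counts in sum (0.635, 0.487 to 0.825). Of these, that from 67935495 to 67936305 passed the rule with 32 and 14 counts (0.462, 0.228 to 0.891). The other lower region lay 175660 bp after the start (68127917 to 68128153), with 49 and 15 counts (0.323, 0.168 to 0.587) and a listed peak in the control only. The region with the most counts, 69152 bp after the start (68021409 to 68022604), had 253 and 200 counts, and its interval held 1 (0.835, 0.690 to 1.01).

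Insr, on chromosome 8 from 3150922 to 3279649, had 5 regions, which summed to 411 counts in the control and 432 after stretching, or 1.11 (0.968 to 1.27). None passed the rule, and the sum did not differ from 1 beyond counting error. The region at a gene end (3278711 to 3280726) had the most counts, 184 and 192 (1.10, 0.896 to 1.36). Only a region inside the gene, from 3220665 to 3222173, had an interval above 1, with 124 and 162 counts (1.38, 1.09 to 1.76).

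At the docking protein genes the summed folds were above 1, while no region passed the rule as higher. Irs1, on chromosome 1 from 82233105 to 82291439, had 6 regions with 491 and 596 counts in sum (1.28, 1.14 to 1.45). A region inside the gene, 7342 bp after the start (82282909 to 82284097), had 98 and 176 counts (1.90, 1.47 to 2.46), under the 2-fold limit. It was the only Irs1 region whose interval excluded 1, and the start-site region, which had the most counts (82290250 to 82292030), had 214 and 233 (1.15, 0.952 to 1.39).

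Irs2, on chromosome 8 from 10984681 to 11008929, had 12 regions with 1183 and 1430 counts in sum (1.28, 1.18 to 1.38). The start-site region (11006938 to 11009948), 3011 bp wide, had 368 and 536 counts (1.54, 1.35 to 1.76). Beyond the far end of the gene, regions at 30524 bp (10953256 to 10954157) and 38018 bp (10945686 to 10946663) had 83 and 146 counts (1.86, 1.41 to 2.46) and 162 and 244 counts (1.59, 1.30 to 1.95). The most distant, at 49143 bp (10935076 to 10935538), was lower with 20 and 5 counts (0.264, 0.077 to 0.725), and neither library had a listed peak there. The sum and the median disagree in sign at Irs2, with a median log2 fold of -0.24. Of the 6 regions with at least 150 counts, 5 were above 1, and all 6 regions with fewer counts were below. Over all regions too, folds were higher where counts were higher, and with that trend removed Irs2 stood at 1.04 (0.960 to 1.12), its start-site region at 1.01 and Irs1 at 1.10 (0.976 to 1.24).

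Met, on chromosome 6 from 17463349 to 17573980, had 20 regions, 14 touching the gene and 6 outside. Their sums were 878 in the control and 1156 after stretching, or 1.39 (1.27 to 1.52), the highest of the 9 genes. Of the 452 genes with at least 20 regions, 31 (6.86%) had a fold as high. The fold was 1.40 (1.27 to 1.54) in the gene and 1.36 (1.09 to 1.69) outside it. The region with the most counts lay 42567 bp after the start (17506524 to 17507452), with 174 and 309 counts (1.88, 1.55 to 2.27), under the 2-fold limit. Its summit pileup in the authors' lists was 118 fragments in the control against 201 after stretching. It belonged to a group of 5 regions between 30 and 45 kb after the start with folds from 1.48 to 6.34, a window chosen after the values were seen. A pair of them, with 20 and 28 counts each, had intervals that held 1 (1.48, 0.804 to 2.77). The region that passed the rule was among them (17501527 to 17501744), with 3 and 18 counts (6.34, 1.85 to 33.6). At 21 counts it only just met the minimum. The 4 regions within 20 kb after the start were all below 1, from 0.604 to 0.919, with intervals that held 1. The start-site region (17463387 to 17465110) had 136 and 163 counts, a fold of 1.27 whose interval only just excluded 1, and that at the far end (17573170 to 17574383) had 91 and 136 (1.58, 1.20 to 2.08).

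Mst1r, on chromosome 9 from 107906858 to 107920383, had 4 regions with 423 and 361 counts in sum (0.902, 0.781 to 1.04). Every region's interval held 1. The region with the most counts, 3164 bp after the first start (107910053 to 107910824), had 214 and 170 counts (0.839, 0.682 to 1.03). The start-site region (107906436 to 107907239) had 89 and 95 (1.13, 0.836 to 1.52). A second annotated start, at 107915003, lay in no merged region of at least 20 counts.

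At the start sites no region reached 2-fold. Over all 11739 start-site regions, 9.49% were higher and 2.57% lower. The folds were above 1 at 7 of the 9 genes (gene ends for Fgfr1 and Insr), with Fgfr2 and Fgfr3 below. With the count trend removed the regions of Irs1 (0.889) and Insr (0.888) were below 1 as well, and with all counts as the scale only those of Igf1r (1.05) and Irs2 (1.09) were above 1. The median log2 fold of the 7 start-site regions was 0.20, against 0.28 for all start-site regions.

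**Figure D3:**
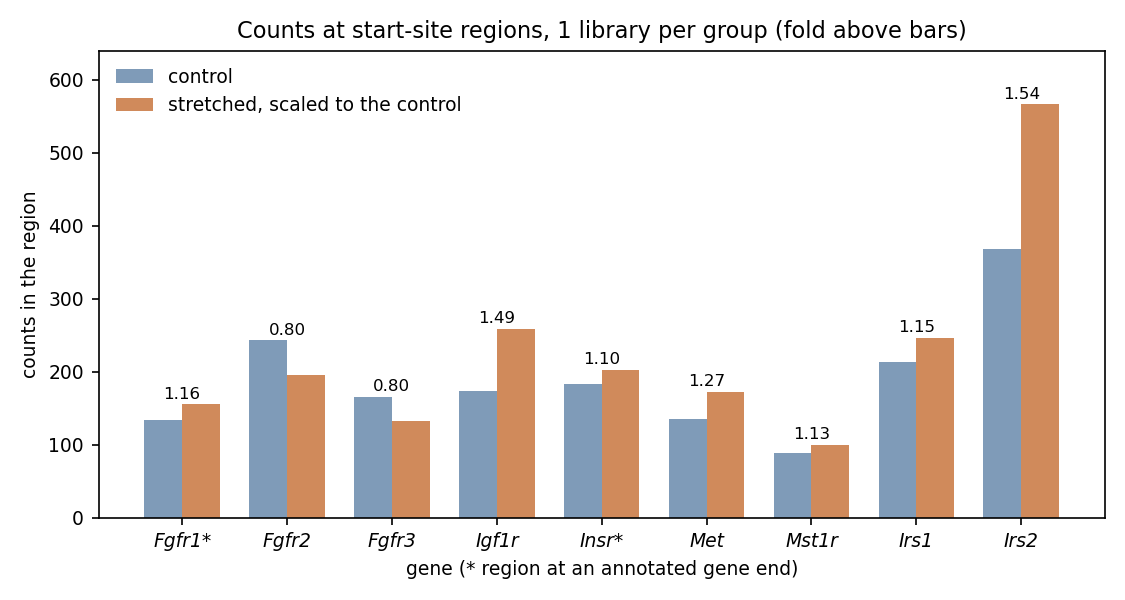
Counts at the start-site region of each gene (for Fgfr1 and Insr, marked with a star, the region at an annotated gene end) by library, 1 per bar, the stretched counts scaled to the control by TMM. The number above each pair is the fold; Fgfr2 and Fgfr3 stand at 0.80 and Irs2 at 1.54.

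Summed over each gene, 3 of the 9 had intervals above 1 (Met, Irs1 and Irs2) and 3 below (Fgfr2, Fgfr3 and Igf1r). Over all 16949 genes with a region, 36.1% lay above and 18.6% below. Of single regions, 16 of the 118 (13.6%) had intervals above 1 and 25 (21.2%) below, against 18.6% and 15.6% of all regions. From low to high, the summed folds ran Fgfr3, Fgfr2, Mst1r, Fgfr1, Igf1r, Insr, Irs2, Irs1 and Met. The intervals of neighbours in this order overlapped, which does not show that their folds were alike, and those of Fgfr2 and Met lay apart. The Igf1r interval held 1 with a minimum of 50 counts, with only regions inside the gene or within 10 kb, by nearest gene end and without its region with the most counts. Mst1r lay below 1 with the count trend removed (0.797, 0.691 to 0.920) and with the large regions left out of the scale (0.818, 0.709 to 0.944). Fgfr2 and Fgfr3 were below 1 with every scaling used. Met was above 1 with the TMM, DESeq2 and large-region-free scalings and with the count trend removed, but at 0.984 (0.900 to 1.08) when all counts set the scale. That scaling puts the median log2 fold of all regions at -0.50. The scaling without the large regions puts it at -0.14.

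**Figure D4:**
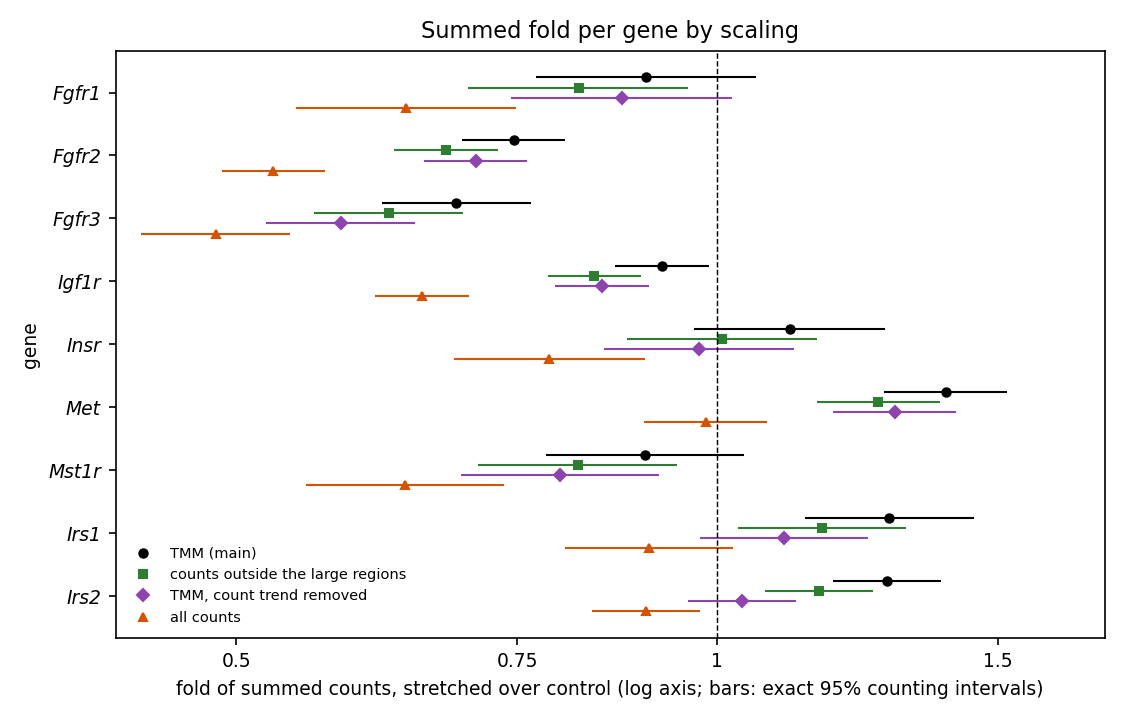
Fold of the summed counts of each gene (stretched over control, log axis) with exact 95% intervals, by the scaling used. Fgfr2 and Fgfr3 lie left of 1 with each scaling drawn. Met lies right of 1 except with all counts, and Irs2 moves from 1.28 to 1.04 once the count trend is removed.

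The authors' peak lists, called in each library alone, gave the same sites another reading. Of the 118 regions, 67 (56.8%) held a peak in both libraries, 8 (6.78%) in the control only, 20 (16.9%) in the stretched library only and 23 (19.5%) in neither. Over all regions these shares were 60.2%, 9.33%, 14.9% and 15.6%. Met had 6 stretched-only regions and 1 control-only region, and Fgfr2 had 4 and 2. Of the 11 lower regions, 5 held peaks in both libraries, 4 in the control only, 1 in the stretched library only and 1 in neither. Both higher regions held a stretched peak only. Among control peaks in these regions, the highest authors' fold enrichment over local background was 17.0, at the Irs2 region 38018 bp from the gene. The same region led the stretched list with 20.8.

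The partners of these receptors were taken as 4 lists. Over all regions, 7.22% were higher and 8.71% lower. Of FGF ligands, Fgfr4, the decoy receptor and adaptors, 10 of 12 genes had regions, with 4 of 51 higher (7.84%) and 2 lower (3.92%). The median log2 fold was -0.24, while the summed fold was 1.08 (1.02 to 1.14), so that median and sum differ in sign. With the scaling free of large regions, 3 were higher and 5 lower (all regions 4.92% and 11.8%). Fgfbp1, a carrier that releases FGFs from the matrix, had 717 and 1022 counts (1.51, 1.37 to 1.66) with 1 of 10 regions higher, Fgf1 had 462 and 309 (0.707, 0.610 to 0.818) with 1 of 9 lower, and Fgf10 had 47 and 62 (1.39, 0.939 to 2.08) with 1 of 3 higher. Fgfr4 had 1 of 5 higher beside a summed fold of 0.754 (0.623 to 0.911). The adaptor genes Frs2 and Frs3 had 1 of 11 higher (1.17, 1.03 to 1.33) and 1 of 2 lower (0.587, 0.398 to 0.855). Fgf7 and Klb had no region. Of the IGF and insulin list, all 13 genes had regions, with 1 of 78 higher (1.28%) and 7 lower (8.97%). The median was -0.11 and the summed fold was below 1 (interval 0.908 to 0.993). Ide, an insulin-degrading protease, had 2 of 11 lower, and Igf2r, which clears IGF2, 1 higher and 1 lower of 15. The adaptor gene Grb14 had 1 of 3 lower, and the summed intervals of Ide, Igf2r and Grb14 all held 1. Igfbp4, Igfbp6 and Insrr also had 1 lower region each. Their summed folds were 0.610 (0.494 to 0.751), 0.874 (0.655 to 1.16) and 0.564 (0.440 to 0.720). Of the HGF and MSP list, 11 of 12 genes had regions (Hgf had none), with 5 of 78 higher (6.41%) and 8 lower (10.3%). The median was 0.02, beside a summed fold of 0.974 (0.938 to 1.01). With the count trend removed this became 9 and 6 (all regions 7.44% and 7.51%). All 5 higher regions were at Cd44, a hyaluronan receptor and co-receptor of Met, which also had 1 of the lower regions among its 24 and 1146 and 1385 counts (1.28, 1.18 to 1.38). Cbl, a ubiquitin ligase that acts on active receptors, had 3 of 8 lower and Ranbp9 2 of 9, both with summed intervals that held 1.

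The list of shared PI3K, AKT and RAS effectors had 34 of 232 regions lower (14.7%) and 8 higher (3.45%), against the 8.71% and 7.22% of all regions. Lower calls outnumbered higher ones under each scaling used, as they also did over all regions. Its median log2 fold was -0.17, while its summed fold was 1.03 (1.01 to 1.06) with TMM scaling, so the 2 differed in sign there. The sum was 1.04 with DESeq2 size factors but below 1 otherwise. It was 0.935 (0.913 to 0.957) with the large regions left out of the scale and 0.922 (0.900 to 0.944) with the count trend removed. With all counts as the scale it was 0.729. Rptor, the scaffold of the mTORC1 kinase complex, had 1855 and 1247 counts and 8 of 36 regions lower (0.710, 0.661 to 0.764). Foxo3, a transcription factor gene whose product AKT holds out of the nucleus, had 7 of 13 lower with a summed interval that held 1 (0.926, 0.846 to 1.01). Gab1, a docking protein of Met, had 2 higher and 5 lower of 28 (1.11, 1.02 to 1.19).

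The ERBB receptor genes, the EGF receptor family of keratinocytes, served as a comparison. They had 41 regions, 4 higher (9.76%) and 1 lower (2.44%), against 7.22% and 8.71% of all regions, and a median log2 fold of 0.24. Egfr held 29 of these regions and 3 of the higher ones, with a summed fold of 1.24 (1.16 to 1.32), and Erbb2 was on the other side of 1 with 419 and 304 counts in sum (0.767, 0.659 to 0.891). The FGF receptor genes Fgfr1, Fgfr2 and Fgfr3 had 42 regions, 1 higher (2.38%) and 8 lower (19.0%), and a median of -0.45. With the count trend removed, the ERBB genes had 5 higher and 0 lower, and these FGF receptor genes 3 and 6. Of all regions, 7.44% were then higher and 7.51% lower. With all counts as the scale the ERBB genes turned to 2 higher and 7 lower, and the FGF receptor genes to none higher and 18 lower, at a scaling where 1.68% of all regions were higher and 23.2% lower. Whether the families differ could not be tested with 1 library per group.

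Of the facts that concern the whole series, peak calling used 31944854 control and 23876613 stretched fragments. Region counts summed to 8820178 and 11803785, of which the 118 regions held 0.0921% and 0.0647%. Without the 10 regions of over 10000 counts, the totals were 5776423 and 6027023. The summed fold of the 118 regions was 0.993 (0.962 to 1.02) with TMM scaling. It was 0.900 (0.872 to 0.929) with the large regions left out of the scale. Basal markers (Krt5, Krt14, Itga6, Itgb4, Col17a1 and Trp63) had regions at 6 of 6 genes, with 509 to 1256 control and 469 to 1385 stretched counts per gene. Markers of other cells also had regions: 5 of 6 fibroblast genes (not Lum; 44 to 355 and 19 to 294 counts), 4 of 5 melanocyte genes (not Tyr; 133 to 1095 and 116 to 950), 5 of 5 endothelial genes (70 to 844 and 65 to 689) and 6 of 6 immune genes (72 to 307 and 49 to 419). The summed folds were 0.771 (0.691 to 0.861) for the fibroblast list, 0.840 (0.783 to 0.901) for the endothelial list and 0.898 (0.860 to 0.937) for the hair follicle stem cell list. They were 1.04 (0.941 to 1.15) for the immune list, 0.934 for the melanocyte list, whose interval held 1, 0.924 (0.855 to 0.998) for the suprabasal list and 1.09 (1.05 to 1.13) for the basal list. The basal fold was 0.985 with the large regions left out of the scale and 0.965 with the count trend removed, and both intervals held 1. It was 0.768 with all counts as the scale. With DESeq2 size factors the suprabasal interval held 1 (0.859 to 1.004). Lists with a summed fold below 1 were on the same side as the FGF receptor genes, but their genes did not all go that way. Summed intervals lay above 1 at 1 fibroblast gene and below 1 at 3, and likewise at 1 and 3 endothelial genes. For hair follicle stem cell genes these were 2 and 4, and for suprabasal genes 2 and 2. The immune list had a median log2 fold of -0.34, on the other side from its sum. The part of these lists in the FGF receptor folds was not tested.

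The count minimum and the distance limit set which regions were included. Just inside the minimum were regions of 21 counts at Fgfr2 (6 and 15), Igf1r (9 and 12) and Met (3 and 18), and just outside were 2 Fgfr2 regions of 19 counts (10 and 9, 11 and 8). Just inside 50 kb were regions at 49143 bp from Irs2 and 47977 bp from Irs1. Just outside was a region 52668 bp from Met, with 18 and 50 counts and a fold of 2.94.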

How the data were processed

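The submitters' processing notes name the build GRCm38, the aligner Bowtie2 (2.2.6), the peak caller MACS2 (2.1.0.20151222) and the tools HTSeq, Picard and SAMtools. Per the file headers, MACS2 ran on single libraries with a q cutoff of 0.05, no control file, and alignments named as unique, without duplicates, filtered and corrected. The deposited pileup is a signal in whole fragments at the summit, and the deposited fold enrichment, a ratio, and -log10 p-values and q-values are relative to local background. The deposited counts are raw counts over 109257 merged regions shared by both libraries. For the counts, the sources used here do not give whether reads or fragments were counted, nor the alignments used. Region starts in the count tables are 0-based (they match peak starts less 1) and were converted to 1-based.

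Each region was assigned to the nearest of 21900 RefSeq protein-coding gene spans. Libraries were scaled with TMM factors over all regions (edgeR 4.0.16, R 4.3.3). Folds divide stretched by control counts after scaling, and their intervals come from exact Clopper-Pearson limits on the stretched share; a 0 was set to 3 counts for a point value. PCR counts lack molecular identifiers and are not independent molecules. The intervals hold counting error alone and treat the counts as independent, so they may be too narrow even for that error. The call steps were tested on simulated data. No test between groups was run. Named regions are, per gene, those with the most counts, at the start site, and with the highest and lowest called fold; others in the text were added after their values were seen. The members, lists and rules were chosen with earlier results of these data known. No exon, intron or UTR annotation was used here. Alternatives were other scalings (DESeq2 1.42.0 size factors, totals, totals without 10 regions over 10000 counts), removal of a lowess trend (statsmodels 0.14.6), and other limits. Scripts ran in Python 3.11.15 with pandas 2.3.3, scipy 1.17.1 and matplotlib 3.10.9 over numpy 2.4.6.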

Additional observations from a re-analysis of the deposited data

How the results depend on the processing

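With DESeq2 size factors the 118 regions again gave 2 higher and 11 lower, and without the large regions 2 and 15 (all regions 4.92% and 11.8%). With all counts as the scale there were 1 higher and 33 lower (13 lower at Fgfr2; all regions 1.68% and 23.2%), and the summed folds of Met, Irs1, Irs2 and Insr turned to 0.984, 0.907, 0.903 and 0.785 (Insr 0.685 to 0.901), since this scaling lowers every fold. With the count trend removed there were 4 higher and 9 lower (all regions 7.44% and 7.51%), and Fgfr2 then had 2 higher; its summed fold stood at 0.706, and that of Met at 1.29. A minimum of 50 counts, which leaves 74 regions, gave 1 higher and 4 lower (3 lower at Fgfr2, all regions 6.33% and 6.05%). No minimum gave 4 higher and 13 lower of 141 regions (all regions 6.95% and 8.64%). A fold of 1.5 gave 12 higher and 20 lower (1 higher at Fgfr2; all regions 14.6% and 13.7%), a fold of 3 gave 1 and 5 (2 lower at Fgfr2; all regions 1.92% and 3.05%), and a 99% interval left 7 lower (all regions 6.37%). Only regions touching the genes gave 4 lower (3 at Fgfr2), and those within 10 kb 6 lower, from 82 and 97 regions (all regions 8.42% and 8.68%). With peaks of -log10 q of at least 5, 40 of the 118 regions held none, as did 34.2% of all regions. The summed fold of Fgfr1 was 1.13 inside the gene, and that of Insr 0.994 by nearest gene end, and the reported interval of each held 1. Low counts limit precision: a region of 21 counts has an interval as wide as 1.85 to 33.6. Without replicate animals, differences between mice were not measured.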

Other observations

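The 23 regions under 20 counts were left out of the counts given for the receptor and docking protein genes. Neither library had a listed peak in 22 of them. Without a minimum, 4 of them would pass the 2-fold rule. With no minimum, 6.95% of all regions were higher and 8.64% lower, and the share among all regions under 20 counts was not computed. At Insr a region 10308 bp outside the gene had 0 control and 9 stretched counts. With the 0 set to 3 counts its fold was 3.17, and its lower interval limit was 2.09. At Igf1r a region inside the gene had 8 and 0 counts. Its fold was 0.396 with the 0 set in the same way, and its upper interval limit was 0.619. A Met region 20011 bp past the gene had 3 and 14 counts (4.93, 1.38 to 26.8), and an Insr region inside the gene had 12 and 3 counts (0.264, 0.048 to 0.979).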
